A study of Mus musculus with 22 samples.

Results

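The 8 genes described here, of 10 chosen, carry the use of arginine for nitric oxide, urea cycle intermediates and polyamines: Nos2, Ass1, Asl, Slc7a2, Odc1, Sat1, Srm and Sms. They were found by gene symbol among the 46078 genes of the count table, and all were present. RNA was sequenced from 22 mice, from tissue labelled distal colon. The 8 C57BL/6 mice (4 males, 4 females) were 14 weeks old, wild type and served as controls. The 7 Winnie mice (3 males, 4 females) were 14 weeks old and labelled inflamed, and the 7 Winnie-Prolapse mice (4 males, 3 females) were 18 weeks old and labelled severely inflamed. Winnie mice carry a missense mutation in Muc2, the gene of the main secreted mucin of the colon, and develop colitis without any added agent; they came from the same breeding colony as the C57BL/6 mice. Age went with prolapse, so the 2 cannot be told apart, and the labels name no sequencing batch.

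L-arginine enters cells through cationic amino acid carriers such as the product of Slc7a2. Inducible nitric oxide synthase (Nos2) turns it into nitric oxide and citrulline, and the enzymes Ass1 and Asl rebuild arginine from citrulline. Ornithine decarboxylase (Odc1) makes putrescine from ornithine, an amino acid derived from arginine, spermidine synthase (Srm) and spermine synthase (Sms) lengthen it to spermidine and spermine, and spermidine/spermine acetyltransferase (Sat1) starts their breakdown and export. In the inflamed gut, Nos2 is known from epithelium and myeloid cells.

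Library sizes ranged from 24.8 M to 36.3 M counted reads. The libraries were from bulk tissue, in which fewer cells of a type and less RNA per cell cannot be told apart. C57BL/6 replicate 7 stood apart: Hoxd13, a gene of the hindmost gut, was at 0.217 CPM (counts scaled to a common library total) there and between 111 and 288 CPM in the other 21 libraries. Hoxb13, also of the hindmost gut, was at 16.4 CPM there and between 177 and 612 CPM elsewhere, and Ly6g was at 3.80 CPM, compared with 242 to 872 CPM (genes chosen after their values were seen). The Hox values of this library go against its distal colon label. In Winnie-Prolapse replicate 6, 18.0% of all counts came from 6 milk protein genes, compared with at most 0.00542% elsewhere. CPM and RPKM used total counts with these reads included, so the values of all other genes are lowered in this library. It held the lowest Winnie-Prolapse value of the summed colonocyte markers, Ass1, Sat1 and Sms. All 10 colonocyte markers were detected, with summed levels of 25310 to 31912 CPM in C57BL/6, 24439 to 35151 CPM in Winnie and 14931 to 35918 CPM in Winnie-Prolapse. Much of that sum was Lypd8, at means of 14548 CPM in C57BL/6 and 13636 CPM in Winnie-Prolapse. Single markers had other patterns: Car1 was at 1994 and 233 CPM, Slc26a3 at 2639 and 411 CPM, and Aqp8 at 495 and 98.1 CPM. Over the Winnie-Prolapse libraries Slc26a3 ranged from 130 to 1229 CPM and Aqp8 from 3.66 to 422 CPM. The other 6 had means of 1104 and 718 CPM (Cdhr5), 813 and 1401 CPM (Krt20), 2653 and 2863 CPM (Krt8), 748 and 833 CPM (Vil1), 1492 and 1572 CPM (Cdh1) and 1666 and 1568 CPM (Epcam), so the list went both ways. Summed macrophage markers ranged over 82.6 to 175, 117 to 346 and 259.9 to 511 CPM in the same order, and summed smooth muscle markers over 6749 to 12198, 2008 to 7393 and 1330 to 3217 CPM. Within the macrophage list Cd163 did not follow, with means of 2.85, 2.01 and 2.35 CPM. The other genes of that list had higher means in Winnie-Prolapse than in C57BL/6, such as Cd14 at 117 and 22.8 CPM. The part of these shifts in the results was not tested.

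Nos2, Slc7a2 and Srm were upregulated in Winnie-Prolapse compared to C57BL/6 mice, and the remaining 5 genes described did not pass the test. A differentially expressed gene (DEG) had a Benjamini-Hochberg adjusted p under 0.001 in edgeR's quasi-likelihood test and a change of at least 1.5-fold, the limits given in the methods of the study. Under this rule 18.3% of the 17397 genes tested were DEGs, and 3 of the 8 members were. At the looser limit of an adjusted p under 0.05 and 1.5-fold, the count was again 3, against a background of 34.4%. The median log2 fold change was 0.38 over the 8 members and -0.01 over all genes tested. With C57BL/6 replicate 7 and Winnie-Prolapse replicate 6 both left out, where 17.5% of the genes tested were DEGs, Nos2 and Srm were called, while Slc7a2 had a log2 fold change of 2.32 ± 0.54 (adjusted p = 0.00276).

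In Winnie compared to C57BL/6 mice, 0 of the 8 members were DEGs by edgeR, where 16 of 17289 genes (0.0925%) were. Of these members, 3 (Nos2, Ass1, Srm) had an unadjusted p under 0.05, as had 6901 of the 17289 genes. DESeq2 called 1 member, Nos2, among 1262 of 29288 genes, and limma-voom called 0 of either. At an adjusted p under 0.05 and 1.5-fold, Nos2 and Srm were upregulated, with a background of 15.9%. A full separation of the Winnie and C57BL/6 libraries was found for 0 members, with a background of 1.64%.

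In Winnie-Prolapse compared to Winnie mice, no gene of the 17041 tested was a DEG by edgeR (0.0%), while 4743 had an unadjusted p under 0.05, DESeq2 called 681 and limma-voom 0. The counts of DESeq2 were over 29471 genes. Among the members, 4 of 8 had an unadjusted p under 0.05, DESeq2 called 1 (Slc7a2) and limma-voom called 0. At an adjusted p under 0.05 and 1.5-fold, Slc7a2 was upregulated by edgeR, with a background of 6.99%, a call lost without Winnie replicate 4 (adjusted p = 0.0518), with limma-voom (0.123) and in males alone (0.823). The Winnie-Prolapse and Winnie libraries were fully separated for 0 members, with a background of 0.962%. The 3 comparisons share libraries, as each group enters 2 of them.

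**Figure D1:**
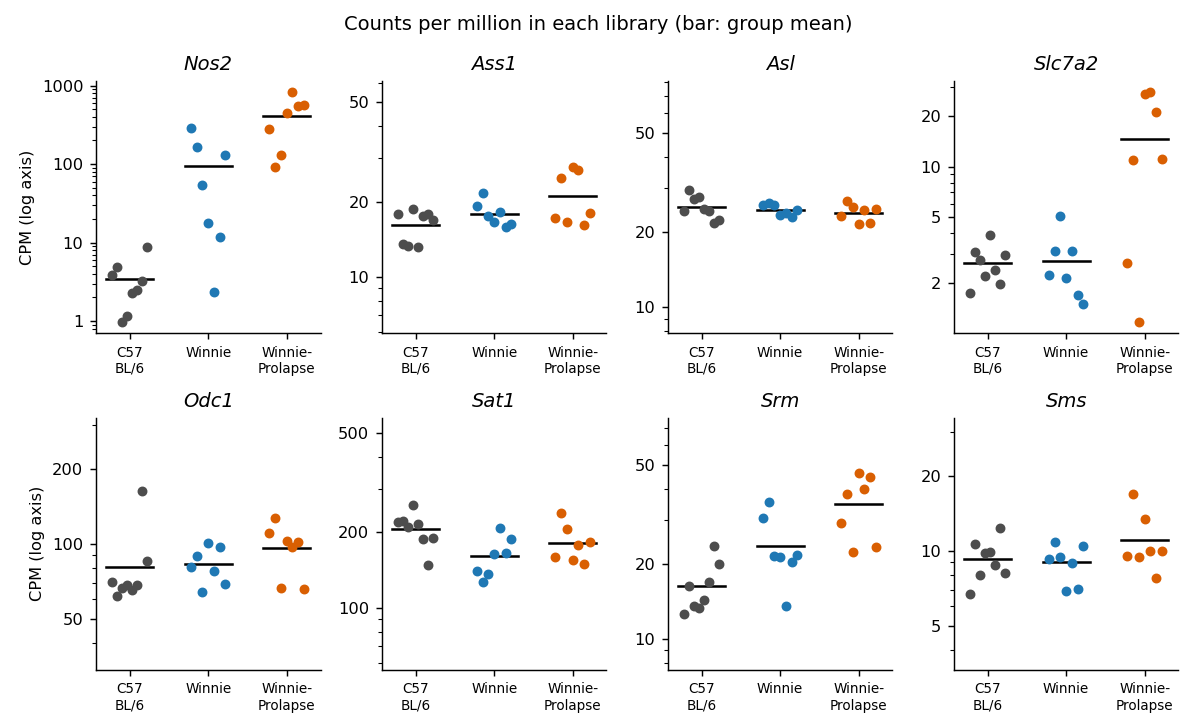
Level in CPM (log axis) of each of the 8 genes in every library of C57BL/6 (n = 8), Winnie (n = 7) and Winnie-Prolapse (n = 7). Each point is a library and each bar a group mean. The Winnie-Prolapse points of Nos2 lie above all C57BL/6 points, while all libraries of Asl lie between 21.6 and 29.4 CPM.

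Nos2 lies on chromosome 11, 78920787 to 78960254, plus strand of GRCm38, the build of all coordinates here. Its level was 0.984 to 8.85 CPM in C57BL/6 (median 2.87), 2.36 to 289 CPM in Winnie (median 54.1) and 92.3 to 818 CPM in Winnie-Prolapse (median 452). Of the Winnie libraries, 6 of 7 were above every C57BL/6 library, and replicate 5, at 2.36 CPM, fell within the C57BL/6 range. All 7 Winnie-Prolapse libraries were above every C57BL/6 library, a separation found for 16.0% of the genes tested in that comparison. The group means were 3.47 ± 2.54, 95.7 ± 106 and 411 ± 260.2 CPM (SD), so that in Winnie the SD exceeded the mean. Winnie replicate 1 was the highest of its group, and the Winnie mean was 63.5 CPM without it.

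The log2 fold change of Nos2 was 6.99 ± 0.61 (SE) in Winnie-Prolapse compared to C57BL/6, or 127-fold, with an edgeR adjusted p of 5.26e-07. In Winnie compared to C57BL/6 it was 4.86 ± 0.83, or 29.1-fold, with an edgeR adjusted p of 0.00236, which misses the limit of 0.001. Leaving out Winnie replicate 5 brought that adjusted p to 0.000256 at a log2 fold change of 5.08. Over all libraries left out in turn, the adjusted p reached 0.00643 (without C57BL/6 replicate 6), and the log2 fold change was lowest without Winnie replicate 1, at 4.25 (adjusted p = 0.00582). With limma-voom it was 3.93 (adjusted p = 0.0315). Winnie-Prolapse exceeded Winnie by 2.14 ± 0.82 on the log2 scale (edgeR adjusted p = 0.108), and 3 of the 7 Winnie-Prolapse libraries lay within the Winnie range.

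The other nitric oxide synthases had other patterns. Nos1, the neuronal enzyme, was downregulated in Winnie-Prolapse compared to C57BL/6, from 36.2 ± 16.9 to 9.54 ± 4.32 CPM (log2 fold change -1.87 ± 0.32, adjusted p = 0.000187). Its change went with lower smooth muscle markers, whose part was not tested. Nos3, the endothelial enzyme (named after its values were seen), had a log2 fold change of 1.11 ± 0.29 and an adjusted p of 0.00477, short of the DEG limit. Per length of transcript, Nos2 reached a mean of 93.2 ± 59.0 RPKM (CPM divided by the exon length in kilobases) in Winnie-Prolapse, compared with 0.787 ± 0.575 in C57BL/6 and 21.7 ± 23.9 in Winnie.

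Slc7a2 (chromosome 8, 40862396 to 40922308, plus strand), the inducible cationic amino acid carrier, overlaps exons of Gm26584 on the other strand, and the strand setting used for counting is not given in the sources used here. Its level was 1.74 to 3.90 CPM in C57BL/6 (median 2.58), 1.51 to 5.09 CPM in Winnie (median 2.26) and 1.18 to 27.8 CPM in Winnie-Prolapse (median 11.1). Of the 7 Winnie-Prolapse libraries, 5 were above every C57BL/6 and every Winnie library. Replicate 1, at 2.66 CPM, lay among them, and replicate 3, at 1.18 CPM, was below all of them.

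The log2 fold change of Slc7a2 was 2.55 ± 0.50 in Winnie-Prolapse compared to C57BL/6 (5.84-fold, edgeR adjusted p = 0.000638) and 2.45 ± 0.56 compared to Winnie (adjusted p = 0.0227; 1.52 in males and 3.27 in females). Between Winnie and C57BL/6 it was 0.10 ± 0.23 (adjusted p = 0.766). The DEG call was near its limit: leaving out any of the 8 C57BL/6 libraries, or Winnie-Prolapse replicate 4, 5, 6 or 7, gave an adjusted p between 0.00104 and 0.00175, and limma-voom gave 0.0279 at a log2 fold change of 1.90. Leaving out Winnie-Prolapse replicate 1, 2 or 3 kept the adjusted p under 0.001.

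Other carriers and enzymes of arginine supply were read from a list of 13 genes, of which 3 were upregulated and 3 downregulated in Winnie-Prolapse compared to C57BL/6 (median log2 fold change 0.027, background 18.3%). Slc7a1, a widely expressed cationic carrier, rose from 32 ± 4.66 to 62.6 ± 19.7 CPM (log2 fold change 1.03 ± 0.17, adjusted p = 0.000125), and Slc7a7, a light chain of the exchanger that moves arginine across basolateral membranes, rose from 35.8 ± 3.73 to 63.1 ± 6.43 CPM (0.91 ± 0.084, adjusted p = 9.02e-07). Ddah1, which breaks down methylated arginines that inhibit nitric oxide synthase, rose from 21.3 ± 28.8 to 162 ± 23.6 CPM (2.99 ± 0.54, adjusted p = 0.000312), and by 3.94 ± 0.28 on the log2 scale with C57BL/6 replicate 7 and Winnie-Prolapse replicate 6 left out. Besides Nos1, the urea cycle gene Otc fell from 6.92 ± 4.88 to 1.09 ± 0.686 CPM (-2.57 ± 0.45, adjusted p = 0.000241). Nags, whose product makes the activator of the urea cycle, also fell (adjusted p = 0.000175), with 0 to 4 reads per library in Winnie-Prolapse, and no fold is given for it. In C57BL/6 it had 685 reads over the 8 libraries, 410 of them in replicate 7, and its mean was 3.06 CPM with that library and 1.38 CPM without it. With C57BL/6 replicate 7 and Winnie-Prolapse replicate 6 left out it was still called (adjusted p = 3.92e-05). Nags passed the filter on low counts only through its C57BL/6 reads, so it could be called only as downregulated.

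Ass1 and Asl, the citrulline recycling enzymes, did not pass the DEG limits in any comparison. Ass1 (chromosome 2, 31470207 to 31520672, plus strand) was at 13.2 to 18.7 CPM in C57BL/6 (median 17.2), 15.8 to 21.6 CPM in Winnie (median 17.4) and 16.1 to 27.5 CPM in Winnie-Prolapse (median 18.1), and the groups overlapped. Its log2 fold change in Winnie-Prolapse compared to C57BL/6 was 0.44 ± 0.12 (edgeR adjusted p = 0.00629), below 1.5-fold. The value was 0.23 ± 0.10 in Winnie (adjusted p = 0.101). Winnie-Prolapse replicates 2, 4 and 5 were above every Winnie and C57BL/6 library for Ass1, and the other 4 lay among them.

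Asl (chromosome 5, 130011258 to 130029247, minus strand) was at 25.2 ± 2.64 CPM in C57BL/6, 24.6 ± 1.22 CPM in Winnie and 24.0 ± 1.85 CPM in Winnie-Prolapse. Its log2 fold changes were 0.047 ± 0.071 for Winnie and 0.014 ± 0.084 for Winnie-Prolapse, each compared to C57BL/6, and -0.029 ± 0.079 between them, with adjusted p values from 0.651 to 0.900. Their signs changed with the scaling or with the libraries left out.

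**Figure D2:**
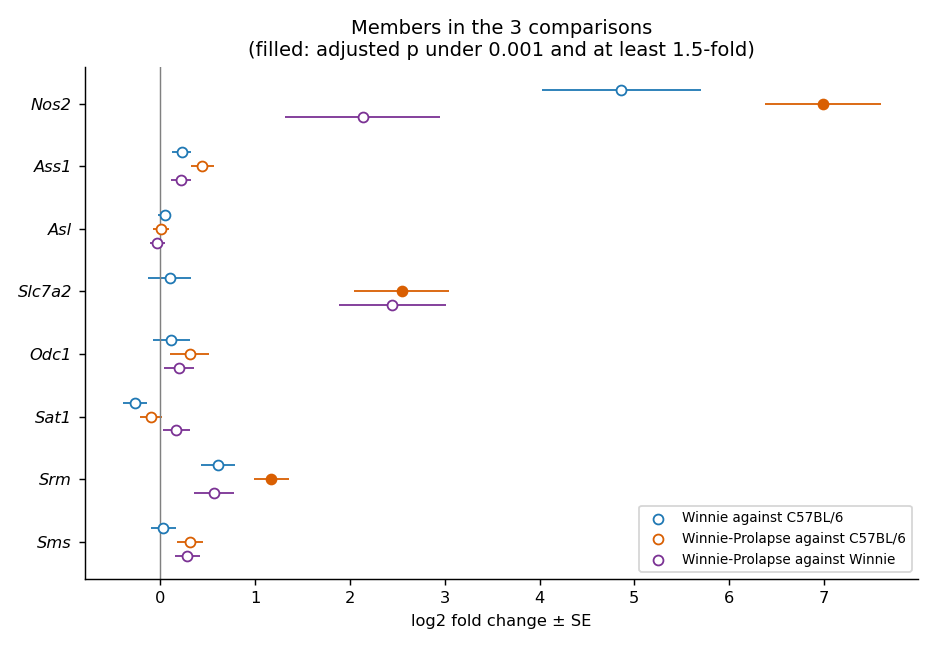
Log2 fold change of each member in the 3 comparisons, with bars of 1 standard error (edgeR); filled points passed both DEG limits. Nos2, Slc7a2 and Srm carry the filled points, at 6.99, 2.55 and 1.17 in Winnie-Prolapse against C57BL/6.

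Of the polyamine members, Srm was the DEG, and only in Winnie-Prolapse compared to C57BL/6. Srm (chromosome 4, 148591503 to 148594993, plus strand) was at 12.5 to 23.7 CPM in C57BL/6 (median 15.3), 13.6 to 35.6 CPM in Winnie (median 21.6) and 22.2 to 46.3 CPM in Winnie-Prolapse (median 38.2). Of the Winnie-Prolapse libraries, 5 of 7 were above every C57BL/6 library, and of the Winnie libraries 2 of 7 were. The log2 fold change was 1.17 ± 0.19 in Winnie-Prolapse compared to C57BL/6 (2.25-fold, adjusted p = 0.000103). In Winnie it was 0.61 ± 0.18 (1.53-fold, adjusted p = 0.0250), and 0.0650 was the adjusted p without Winnie replicate 2. Over the alternative settings this log2 fold change ran from 0.16 to 1.10, the latter in males alone (edgeR adjusted p = 0.00413). Between Winnie-Prolapse and Winnie it was 0.57 ± 0.21 (adjusted p = 0.100).

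Odc1 (chromosome 12, 17544794 to 17551505, plus strand), the entry step of polyamine synthesis, was at 61.7 to 163 CPM in C57BL/6 (median 68.4), 64.4 to 101 CPM in Winnie (median 80.9) and 65.9 to 127 CPM in Winnie-Prolapse (median 102). The highest C57BL/6 value was that of replicate 7, and the other 7 C57BL/6 libraries lay between 61.7 and 85.1 CPM. With all libraries the log2 fold change was 0.31 ± 0.21 in Winnie-Prolapse (adjusted p = 0.220) and 0.12 ± 0.20 in Winnie (adjusted p = 0.680), each compared to C57BL/6. Without C57BL/6 replicate 7 these were 0.55 ± 0.12 (adjusted p = 0.00166) and 0.34 ± 0.12 (adjusted p = 0.0425), neither of which passes both DEG limits.

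Sat1 (chromosome X, 155213132 to 155216449, minus strand) was at 207 ± 32 CPM in C57BL/6, 161 ± 29.8 CPM in Winnie and 182 ± 32.3 CPM in Winnie-Prolapse. Its log2 fold change was -0.27 ± 0.13 in Winnie (adjusted p = 0.137) and -0.10 ± 0.11 in Winnie-Prolapse (adjusted p = 0.481), each compared to C57BL/6. Sms (chromosome X, 157443855 to 157492287, minus strand) was at 9.30 ± 1.75 CPM in C57BL/6, 9.0 ± 1.52 CPM in Winnie and 11.1 ± 3.11 CPM in Winnie-Prolapse. Its log2 fold change was 0.31 ± 0.14 in Winnie-Prolapse (adjusted p = 0.0681) and 0.035 ± 0.13 in Winnie (adjusted p = 0.862). The groups of Sat1 and of Sms overlapped in every comparison.

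Per length, the catabolic Sat1 stood above the synthetic Odc1 in all 22 libraries, a description with no test. The ratio of their RPKM values ranged from 1.11 to 4.60 for C57BL/6 (median 3.87), from 1.74 to 3.35 for Winnie (median 2.12) and from 1.77 to 3.84 for Winnie-Prolapse (median 2.24). The lowest ratio was that of C57BL/6 replicate 7.

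None of the 6 further genes of polyamine synthesis and its control was a DEG by edgeR in any of the 3 comparisons (median log2 fold change -0.28 in Winnie-Prolapse compared to C57BL/6). The best expressed of them, the antizyme inhibitor Azin1, was at 254 ± 62.8 CPM in C57BL/6 and 220.2 ± 39.4 CPM in Winnie-Prolapse, with a log2 fold change of -0.10 ± 0.18 (adjusted p = 0.664). Amd1, which supplies the aminopropyl groups used by Srm and Sms, had a log2 fold change of 0.36 ± 0.10 and an adjusted p of 0.00725.

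The list of polyamine oxidation, transport and hypusine held 4 DEGs among 10 genes in Winnie-Prolapse compared to C57BL/6, of which 2 rose and 2 fell, beside a background of 18.3%. Spermine oxidase (Smox) rose from 33.5 ± 13.0 to 92.7 ± 16.2 CPM (log2 fold change 1.54 ± 0.20, adjusted p = 2.17e-05). Eif5a, the translation factor that carries the hypusine made from spermidine, rose from 349.8 ± 19.8 to 554 ± 101 CPM (0.73 ± 0.076, adjusted p = 2.79e-06). Aoc1, a diamine oxidase that degrades putrescine and histamine, fell from 417 ± 137 to 123 ± 48.9 CPM (-1.67 ± 0.30, adjusted p = 0.000255). In Winnie compared to C57BL/6 its log2 fold change was -0.71 ± 0.27 (edgeR adjusted p = 0.0637) and it was not called. The study's own text lists Aoc1 as downregulated in the Winnie colon, on a smaller set of Winnie libraries. Sat2, a relative of Sat1, fell from 2.68 ± 0.516 to 0.923 ± 0.368 CPM (-1.48 ± 0.21, adjusted p = 3.93e-05).

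Ornithine also passes to proline and glutamate, and 3 of the 9 genes tested from the list of arginine and ornithine catabolism were DEGs in Winnie-Prolapse compared to C57BL/6, beside the same 18.3%. Ornithine aminotransferase (Oat) fell from 148 ± 23.1 to 67.9 ± 16.7 CPM (log2 fold change -1.04 ± 0.12, adjusted p = 6.72e-06) and was at 79.4 ± 17.2 CPM in Winnie. Aldh18a1, which makes the proline precursor from glutamate, rose (1.30 ± 0.21, adjusted p = 0.000146), and Pycr3, listed under its older symbol Pycrl, fell (-0.65 ± 0.13, adjusted p = 0.000694). The cofactor of nitric oxide synthases, tetrahydrobiopterin, was covered by 6 genes. Of these Gch1, its first enzyme, rose from 29.1 ± 7.25 to 51.6 ± 6.44 CPM (0.91 ± 0.16, adjusted p = 0.000190), and Qdpr, which recycles the cofactor, fell (-0.87 ± 0.14, adjusted p = 9.30e-05).

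**Figure D3:**
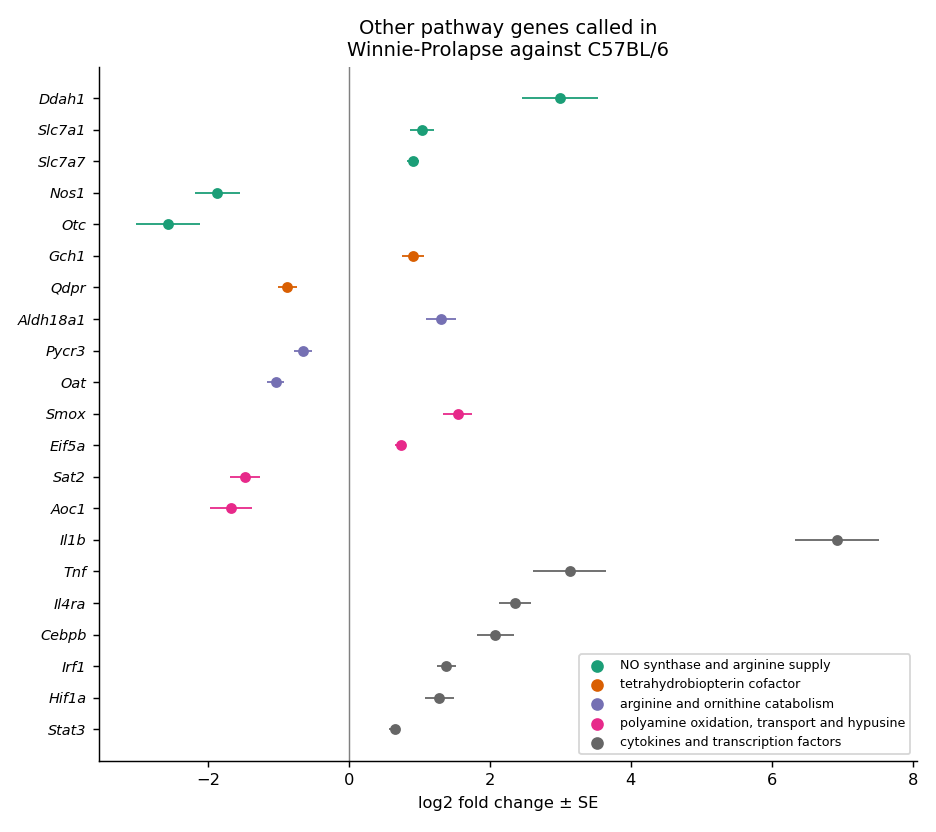
Log2 fold change with 1 standard error (edgeR) of 21 of the 24 genes of the pathway lists that were DEGs in Winnie-Prolapse against C57BL/6, coloured by list. Among them 14 are above 0 and 7 below; Ifng, Il10 and Nags are not drawn, as too few reads in a group give them no fold.

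Cytokines, their receptors and transcription factors known from inflammation formed the list with the most DEGs in Winnie-Prolapse compared to C57BL/6. Of its 16 genes 11 passed the filter on low counts and were tested, and 9 were DEGs, all upregulated. Ifng and Il10 passed that filter only through their Winnie-Prolapse reads, so they could be called only as upregulated. Over all 6 lists 24 of 55 tested genes were DEGs in that comparison, Ifng, Il10 and Nags among them, beside 18.3% of all genes tested. With C57BL/6 replicate 7 and Winnie-Prolapse replicate 6 left out 27 were, beside 17.5%. The lists were chosen with earlier results of these data known, so these counts are a description only. Ifng, an inducer of Nos2 in macrophages, had 2 reads over the 8 C57BL/6 libraries and 143 over the 7 Winnie libraries. In Winnie-Prolapse it was at 1.39 to 10.2 CPM (adjusted p = 2.55e-07 compared to C57BL/6), and no fold is given for it. Il1b rose from 0.887 ± 0.560 to 104 ± 93.8 CPM (log2 fold change 6.93 ± 0.60, adjusted p = 4.83e-07) and Tnf from 3.16 ± 2.64 to 26.1 ± 16.5 CPM (3.13 ± 0.52, adjusted p = 0.000152).

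Irf1, a transcription factor induced by interferon, rose by 1.38 ± 0.13 on the log2 scale (adjusted p = 1.44e-06). Il4ra, the receptor chain shared by interleukin 4 and interleukin 13, rose by 2.35 ± 0.22 (adjusted p = 1.21e-06) and Cebpb by 2.08 ± 0.26 (adjusted p = 1.54e-05). The ligands themselves were barely detected, with 0 to 2 reads per library of Il4 and of Il13. Il10 was also a DEG (adjusted p = 5.32e-05), with 1 to 5 reads per library in C57BL/6, near the floor of detection, and 10 to 30 in Winnie-Prolapse, and no fold is given for it. The rest of the DEGs of the list were Hif1a (1.28 ± 0.21, adjusted p = 0.000117) and Stat3 (0.65 ± 0.082, adjusted p = 1.46e-05).

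In the other comparisons none of the pathway genes was a DEG by edgeR. For Winnie against C57BL/6 the count was 0 of 53 tested (background 0.0925%), and 32 had an unadjusted p under 0.05, as had 6901 of the 17289 genes tested. DESeq2 called 10 of them, among 1262 of 29288 genes, and limma-voom 0. For Winnie-Prolapse against Winnie it was 0 of 55 (background 0.0%), with 25 at an unadjusted p under 0.05, as were 4743 of the 17041 genes tested. DESeq2 called 6 of them, among 681 of 29471 genes, and limma-voom 0.

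Summed markers of other cell types covered different ranges in the groups. Squamous epithelium markers, which colon should lack, summed to 2.09 to 3.05 CPM in C57BL/6, 2.08 to 56.5 CPM in Winnie and 2.36 to 3339 CPM in Winnie-Prolapse, and all 10 of that list were detected above 3 reads in some library. Winnie-Prolapse replicate 1, with a sum of 4.88 CPM, and replicate 3, with 2.36 CPM, were the lowest of their group in that sum and in Slc7a2. The order was not shared throughout: replicate 7 had the sum 3339 CPM and Slc7a2 at 11.1 CPM, and replicate 5 had 184 and 27.8 CPM. Nos2 was at 276 CPM in replicate 1 and 132 CPM in replicate 3, both below replicates 4 to 7, at 452 to 818 CPM. Its lowest value of the group, 92.3 CPM, was in replicate 2, whose squamous sum was 1995 CPM.

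The summed neutrophil markers were also higher in Winnie-Prolapse, a description with no test. Not every gene of the list followed. Mpo had means of 0.0402 CPM in C57BL/6 and 0.0431 CPM in Winnie-Prolapse, and Elane 0.00453 and 0.0482 CPM, all below the floor of detection. Ly6g made up most of that list in C57BL/6, so the sum is given without it, a choice made after its values were seen. That sum was 0.507 to 3.51 CPM in C57BL/6, 1.80 to 130.3 CPM in Winnie and 71.4 to 1398 CPM in Winnie-Prolapse, and all 10 genes of the list were detected. Markers of alternatively activated macrophages summed to 19.2 to 61.9, 16.5 to 45.2 and 33.2 to 77.9 CPM in the same order, and the means of its genes went both ways. From C57BL/6 to Winnie-Prolapse, Mrc1 was at 14.9 and 31.6 CPM and Chil3 at 0.0534 and 14.8 CPM. Retnla was at 7.83 and 3.05 CPM and Mgl2 at 3.59 and 2.65 CPM. Some of these means hide a wide spread. Over the Winnie-Prolapse libraries Retnla ranged from 0.326 to 14.7 CPM and Chil3 from 0.444 to 39.7 CPM. Winnie-Prolapse replicates 1 and 3, the lowest of their group in Slc7a2, were also the lowest in the neutrophil sum without Ly6g (71.4 and 84.3 CPM). The same held for the alternatively activated macrophage sum (39.2 and 33.2 CPM), but that order depended on Chil3. This gene made up 39.7 of the 77.9 CPM in replicate 4 and 0.444 of the 39.2 CPM in replicate 1. In the neutrophil sum, replicate 4 had 1398 CPM with Slc7a2 at 27.1 CPM, and replicate 5 had 464 and 27.8 CPM. The part of any of these cell types in the levels of Nos2 and Slc7a2 was not tested.

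**Figure D4:**
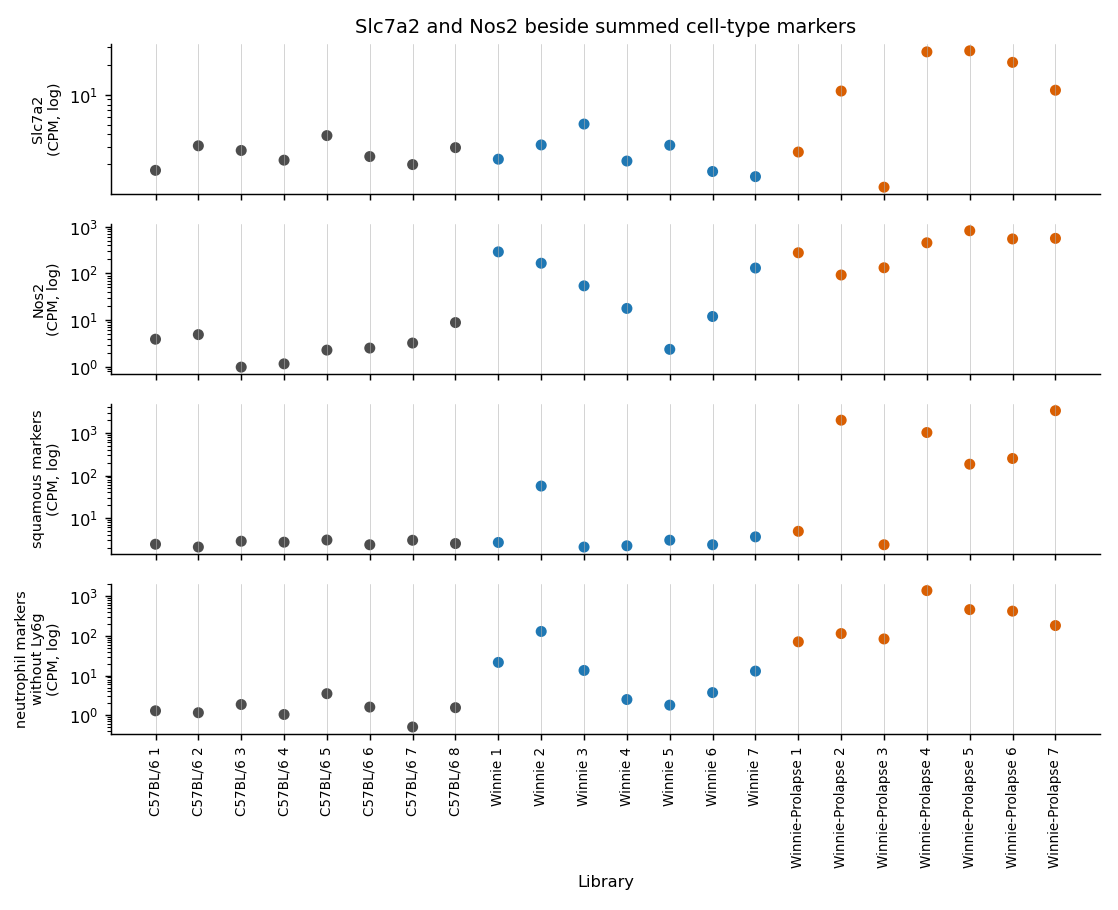
Levels of Slc7a2 and Nos2 beside the summed squamous markers and the summed neutrophil markers without Ly6g, in each of the 22 libraries (CPM, log axis). Winnie-Prolapse replicates 1 and 3 are the lowest of their group in Slc7a2, squamous markers and neutrophil markers, while replicate 2 is the lowest in Nos2. Winnie replicate 2 is the highest of its group in squamous and neutrophil markers.

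The genes whose pattern over the 22 libraries was most like that of Nos2 were Serpina3f, Tgtp1, Iigp1, Cxcl9 and Gm4951. The measure was the root mean square difference of centred log2 CPM, which was 0.92 to 1.04 for these 5 of 13598 genes, compared with 3.22 for the deviation of Nos2 from its own mean. Cxcl9, an interferon-induced chemokine, was at 0.664 ± 0.430 CPM in C57BL/6, 38.7 ± 47.7 CPM in Winnie and 133 ± 84.1 CPM in Winnie-Prolapse. The libraries share their groups, so this likeness is a description only.

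Males and females were compared across the 3 groups with group as a covariate, and 0 of the 8 members were DEGs by sex, where 13 of 18911 genes (0.0687%) were. By edgeR 0 members had an unadjusted p under 0.05, and limma-voom called 0. A sex difference in the change from C57BL/6 was called for no gene at an adjusted p under 0.05 by edgeR, either for Winnie (0.0%, with 2476 genes at an unadjusted p under 0.05) or for Winnie-Prolapse (0.0%, with 945). Members with an unadjusted p under 0.05 for that interaction were Sat1 and Srm in Winnie and Asl in Winnie-Prolapse, and limma-voom had these and Nos2 in Winnie, with 0 members called.

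Sat1 had the smallest of these p values. In males it was at 211 to 257 CPM in C57BL/6 and 126 to 139.7 CPM in Winnie, and in females at 147 to 216 and 165 to 209 CPM. Its interaction term was -0.83 ± 0.20 on the log2 scale, with an edgeR unadjusted p of 0.000679 and an adjusted p of 0.226, so it was not called. For Srm the males were at 13.9 ± 1.64 CPM in C57BL/6 and 29.2 ± 7.10 CPM in Winnie and the females at 18.7 ± 4.01 and 19.3 ± 3.82 CPM, with an interaction of 0.93 ± 0.35 (adjusted p = 0.296).

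Within each sex, Nos2 was a DEG in Winnie-Prolapse compared to C57BL/6, at a log2 fold change of 6.46 in males (edgeR adjusted p = 0.000582) and of 7.39 in females (adjusted p = 0.000330). In Winnie compared to C57BL/6 it was 6.01 in males (adjusted p = 0.00123) and 3.40 in females (adjusted p = 0.194), and in Winnie-Prolapse compared to Winnie 0.46 (adjusted p = 0.906) and 3.98 (adjusted p = 0.0479). The difference between the sexes in the change from C57BL/6 to Winnie was 2.59 ± 1.30 on the log2 scale (edgeR unadjusted p = 0.0606, adjusted p = 0.398) and was not called. In Winnie-Prolapse compared to C57BL/6, Slc7a2 had 2.03 in males (adjusted p = 0.0752) and 3.00 in females (adjusted p = 0.00156), and Srm had 1.29 (adjusted p = 0.00146) and 1.12 (adjusted p = 0.0202). The fits within a sex rest on 3 or 4 mice per group.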

How the data were processed

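Gene-level read counts of 22 libraries labelled distal colon were used as deposited (raw counts, not normalised). The authors selected poly(A) RNA, sequenced stranded paired-end libraries, and ran the RNAsik pipeline with STAR and featureCounts on GRCm38; the annotation release, the strand setting and the handling of reads shared by genes are not given in the sources used here. Groups, sex and age were read from the labels, and replicate numbers follow the sample order. Each library is labelled as 1 mouse. The labels give 7 Winnie libraries, 1 more than the study's own text on the colon; which one that text leaves out is not given in the sources used here, and all 7 were used.

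Counts were tested over the whole table with edgeR 4.0.16 (quasi-likelihood, TMM factors, filterByExpr) in R 4.3.3, on the 2 groups compared, with Benjamini-Hochberg adjustment over all genes tested. CPM used total counts, and RPKM used merged exon lengths of the GENCODE M21 annotation of GRCm38, which also gave coordinates. A count of 3 reads, 0.0825 to 0.121 CPM by library, is the floor of detection and covers counting error only. DESeq2 1.42.0, limma-voom (limma 3.58.1), other scalings, filters and call limits, sex as a covariate, each sex alone, a joint fit and leaving out each library were the alternatives; leaving out 2 libraries together, and the looser limit without a library that stands apart, were added after seeing the data. Scripts were checked on simulated counts.

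The members, the 6 pathway lists (61 genes, 1 matched by an older symbol) and the 8 marker lists were chosen with earlier results of these data known. Of the members, 2 are not reported here, nor is a gene of a pathway list; counts of members and listed genes are over the rest. Named were the other members, every DEG of a pathway list or else its 2 best expressed genes, and the 5 genes most like Nos2. Nos3, Il4 and Il13 were named outside this rule. The remaining marker list, erythroid, summed to 15.8 to 490 CPM in C57BL/6, 5.96 to 57.0 in Winnie and 108 to 1508 in Winnie-Prolapse.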

Additional observations from a re-analysis of the deposited data

Results flagged for a closer look

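In the 24 sets of values (8 genes in 3 groups), 1 held a library far from the rest by Dixon's test at the 95% level, which chance flags in about 1 in 20 groups. Odc1 was at 163 CPM in C57BL/6 replicate 7, the library with almost no Hoxd13 reads, and the other 7 libraries of that group were between 61.7 and 85.1 CPM.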

How the results depend on the processing

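Of 624 values of single members under alternative settings, 579 kept their direction and their side of the DEG limits, 18 lost the call, 4 gained it and 23 changed sign, none of the latter a called value; the cause was not tested. Over all genes, the 16 DEGs of Winnie against C57BL/6 became 1262 with DESeq2, 8 without TMM factors and 0 with limma-voom, and the 3186 of Winnie-Prolapse against C57BL/6 became 5047 with DESeq2. DESeq2 used its own filter in place of filterByExpr, and so tested 29288 genes in place of 17289 and 29816 in place of 17397; test and filter changed together there. No paired analysis was possible because the replicate numbers follow the sample order and pair no mice. In Winnie compared to C57BL/6, the 0 members called became 1 with DESeq2 or with the 3 groups in one fit. At the looser limit they became 2, beside a background of 15.9% (also 2 there without C57BL/6 replicate 7). They became 0 to 1 when a library was left out (1 without Winnie replicate 5). The 0 pathway genes became 10 with DESeq2, 2 in the joint fit, 1 in males and 18 of 53 at the looser limit (background 15.9%). They became 0 to 5 when a library was left out (2 without C57BL/6 replicate 7, 5 without Winnie replicate 5). In Winnie-Prolapse compared to C57BL/6, the 3 members became 1 in males and 1 in females, and 2 to 3 when a library was left out, and the 24 pathway genes became 4 in males and 6 in females, where fewer mice were tested. In Winnie-Prolapse compared to Winnie, the 0 members became 1 with DESeq2 and 1 at the looser limit (also 1 without Winnie-Prolapse replicate 6). The 0 pathway genes became 6 with DESeq2 and 8 at the looser limit, where the background was 6.99%. The share of all genes called is not given here for the joint fit, the fits within a sex or those without a single library. Their counts therefore cannot be read against a background.

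Signs of uncalled values that changed, as log2 fold changes in Winnie against C57BL/6, were those of Asl without TMM factors (-0.036) and in males (-0.047), Odc1 in females (-0.026), Sat1 in females (0.081), Slc7a2 in females (-0.30), and Sms without TMM factors (-0.047), with at least 10 counts in every library (-0.011) and in females (-0.11). In Winnie-Prolapse against C57BL/6 they were Asl without TMM factors (-0.064), in males (-0.13) and with the 2 libraries left out (-0.011), and Sat1 in females (0.034). In Winnie-Prolapse against Winnie they were Asl (0.021) and Sat1 (-0.070) in females. Leaving out a library gave Slc7a2 -0.089 to 0.20 and Sms -0.021 to 0.10 in Winnie against C57BL/6, and Asl -0.033 to 0.070 and -0.071 to 0.015 in Winnie-Prolapse against C57BL/6 and against Winnie. Depth limits Ifng in C57BL/6, where 6 of 8 libraries held 0 reads.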
